A study of Drosophila melanogaster with 32 samples.

Results

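Editing of messenger RNA in Drosophila S2 cells was compared between libraries in which a hyperactive RNA deaminase was attached to the RNA-binding protein Hrp48 and libraries in which the deaminase was expressed with no RNA-binding protein. All 5118 genes with a listed edited site in any of the 4 libraries entered the comparison, of 5181 genes with a listed site in the 7 libraries of the series analysed here. Hrp48 HyperTRIBE (2 libraries) is Hrp48 joined to the catalytic domain of ADAR with the E488Q change, and the deaminase alone (2 libraries) is the E488Q catalytic domain by itself. Both were introduced into S2 cells, an embryonic line with hemocyte-like features, by transient transfection and induced with copper sulphate, and the cells were sorted by fluorescence before polyadenylated RNA was sequenced. The constructs were expressed beside the cells' own genes, and how much of each was made is not stated. Whether replicates came from different cultures is not stated, so p-values measure only the spread between these libraries, which may be technical.

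ADAR enzymes convert adenosine to inosine, which is read as guanosine after sequencing. In the TRIBE method the deaminase is joined to an RNA-binding protein, so that adenosines of bound transcripts are edited and mark them, while the domain with no partner shows what the enzyme edits by itself. Hrp48, the product of Hrb27C, is an abundant hnRNP protein that binds messenger RNA in the nucleus and the cytoplasm and acts in splicing, RNA localisation and translation. The question was therefore which genes were edited only with Hrp48 attached and which were edited without it.

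The deposited lists hold a site only with at least 20 reads and 10% editing, the lowest values seen. An adenosine missing from a list may have lacked reads or lacked editing above that level, and no value was filled in for it. The highest read number at any site lay between 108 and 149 in each of the 4 libraries, so reads at a site do not measure the level of an abundant transcript. In bulk RNA, fewer cells with a transcript and less of it per cell cannot be told apart. The file headers place the HyperTRIBE libraries in library sets 2 and 3 and the deaminase-alone libraries in sets 4 and 6, and the effect of the construct cannot be told apart from that of the set. Of 31 gene symbols in the hemocyte and matrix list 16 were listed, among them the scavenger receptor gene crq with 17 and 18 HyperTRIBE sites. The site lists held 1 of 21 symbols for neurons (brp, with 1 site in HyperTRIBE replicate 2) and 1 of 7 for the germline (aub). Of the symbols for muscle they held 0 of 7, and for fat body 0 of 9.

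With Hrp48 attached, edited sites were listed in a far larger number of genes, and with more sites in each. HyperTRIBE replicates 1 and 2 listed 19706 and 22803 sites in 4036 and 4759 genes. The deaminase alone listed 13 sites in 14 genes in replicate 1, where 1 site lay in a pair of overlapping genes, and 459 sites in 282 genes in replicate 2. The groups did not overlap, but the deaminase-alone replicates differed from each other by more than an order of magnitude. The mean number of genes was 4398 ± 511 (SD, n = 2) with Hrp48 and 148 ± 190 (SD, n = 2) without, a ratio of 29.7. The ratio was 15.6 without deaminase-alone replicate 1 and 314 without replicate 2. A two-sided exact permutation test gave p = 0.33, the smallest value that 2 libraries against 2 allow. A gene held 5.07 and 4.97 sites on average with Hrp48, and 1 and 1.67 without. Genes with a single listed site made up 23.3% and 24.3% of the HyperTRIBE genes but 100% and 71.3% of the deaminase-alone genes.

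**Figure D1:**
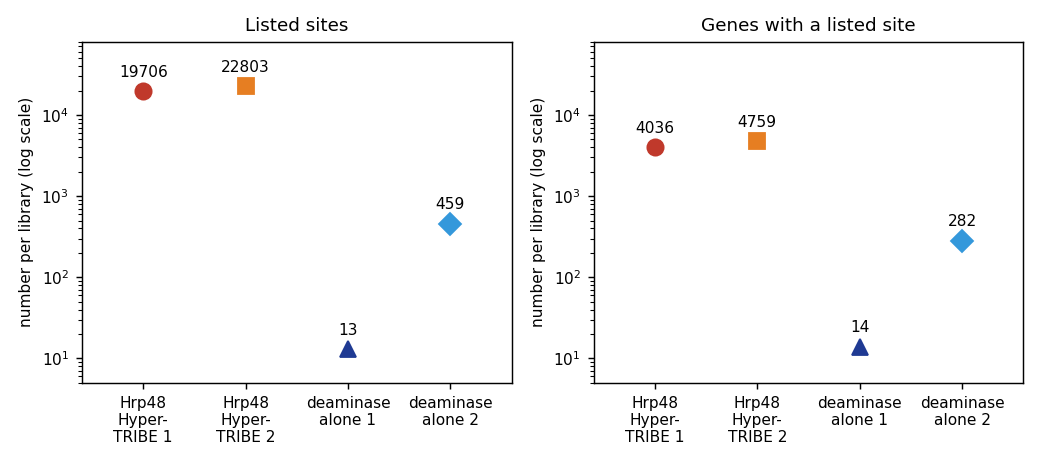
Number of listed edited sites (left) and of genes with a listed site (right) in each of the 4 libraries, on logarithmic axes. Each point is 1 library, with its number above it; both HyperTRIBE libraries lie above both deaminase-alone libraries, whose own values are 13 and 459 sites.

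The median level of editing at a listed site did not separate the groups. The median was 15.4% and 15.5% in the HyperTRIBE libraries, and 16.7% and 14.3% in the deaminase-alone libraries, so the HyperTRIBE values lay between the other two (exact permutation test, p = 1). The difference of the means was -0.05 points, and it changed sign without deaminase-alone replicate 1 (1.14 points). Sites edited at 50% or more were 2.31% and 2.34% of the HyperTRIBE sites, and 15.4% (2 of 13) and 2.61% (12 of 459) of the deaminase-alone sites. These shares did not overlap between the groups (exact permutation test, p = 0.33), and the interval for replicate 2 of the deaminase alone, 1.5 to 4.51%, contained both HyperTRIBE values. Median reads per listed site were 33 and 37 with Hrp48 and 33 and 27 without. Sites in introns were 0.579% and 0.697% of HyperTRIBE sites and 0% and 0.436% of deaminase-alone sites. For the 13 sites of replicate 1, a count of 0 still allows a share well above all of these, with a Wilson 95% interval up to 22.8%. Of HyperTRIBE site lines, a line being a site in 1 gene, 56.0% and 55.2% had another listed site of that gene no more than 100 bases away, and of deaminase-alone lines 0% and 29.03%. The libraries also differed in the number of sites they listed, and its part in this share was not tested. Among libraries of other constructs, FMRP HyperTRIBE listed 4694 sites with a share of 23.7%. The Hrp48 TRIBE replicates listed 1252 and 1400 sites with shares of 32.5% and 26.5%. All Wilson intervals here cover counting error only.

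Genes were then placed in classes by whether a site was listed in both HyperTRIBE libraries and whether any site was listed without Hrp48. Of the 5118 genes, 2966 (58.0%) had a site in both HyperTRIBE libraries and none in either deaminase-alone library. A further 254 (4.96%) had both a reproduced HyperTRIBE site and a deaminase-alone site. The 1865 genes left with HyperTRIBE sites only had no site that both HyperTRIBE libraries listed. Another 28 had a deaminase-alone site and HyperTRIBE sites that were not reproduced, and 5 were listed without Hrp48 only. Looked at from the deaminase-alone side, 282 of its 287 genes (98.3%, 96.0 to 99.3%) also had a HyperTRIBE site and 254 (88.5%, 84.3 to 91.7%) a reproduced one. All but 5 of the 5118 genes had a HyperTRIBE site, so the first of these shares is near that over all genes. A reproduced HyperTRIBE site was held by 3220 of the 5118. Of these 3220 genes, 7.89% were listed without Hrp48. The class sizes follow the listing minimum: with at least 50 reads required in every library, 1040 genes were listed only with Hrp48, 34 in both and 1 without only. Without deaminase-alone replicate 2 the gene number in both fell to 14.

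Among the 2966 genes listed only with Hrp48, those with most reproduced sites had between 20 and 29 of them. SCAP, the escort protein that brings the lipid-regulated factor SREBP out of the endoplasmic reticulum, had 39 and 32 HyperTRIBE sites, of which 29 were shared by both libraries. The kinase gene hipk had 34 and 38 sites with 28 shared. CtBP, a transcriptional corepressor, had 54 and 45 with 26 shared. Sam-S, which makes the methyl donor S-adenosylmethionine, had 38 and 32 with 25 shared. None of these 4 genes, nor pcs (38 and 35), CG31678 (32 and 33), CG3107 (33 and 29) and the kinesin-binding protein gene Unc-76 (24 and 25), was listed by either deaminase-alone library.

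The netrin receptor genes unc-5 and fra, which guide axons and migrating cells, both fell among these genes. In unc-5 the HyperTRIBE libraries listed 27 and 39 sites, and in fra 34 and 39, with 23 and 20 of them shared. PEK, the endoplasmic reticulum kinase that phosphorylates eIF2alpha under stress, had 32 and 27 sites with 23 shared. CG42666 had 33 and 28, but 10 of its 23 shared sites were also annotated to Adar, which overlaps it. Levels within these genes were moderate: the median site lay between 13.7% (fra, replicate 1) and 29.8% (Unc-76, replicate 2). Unc-76 stood highest in both libraries, with 24.8% and 29.8%.

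**Figure D2:**
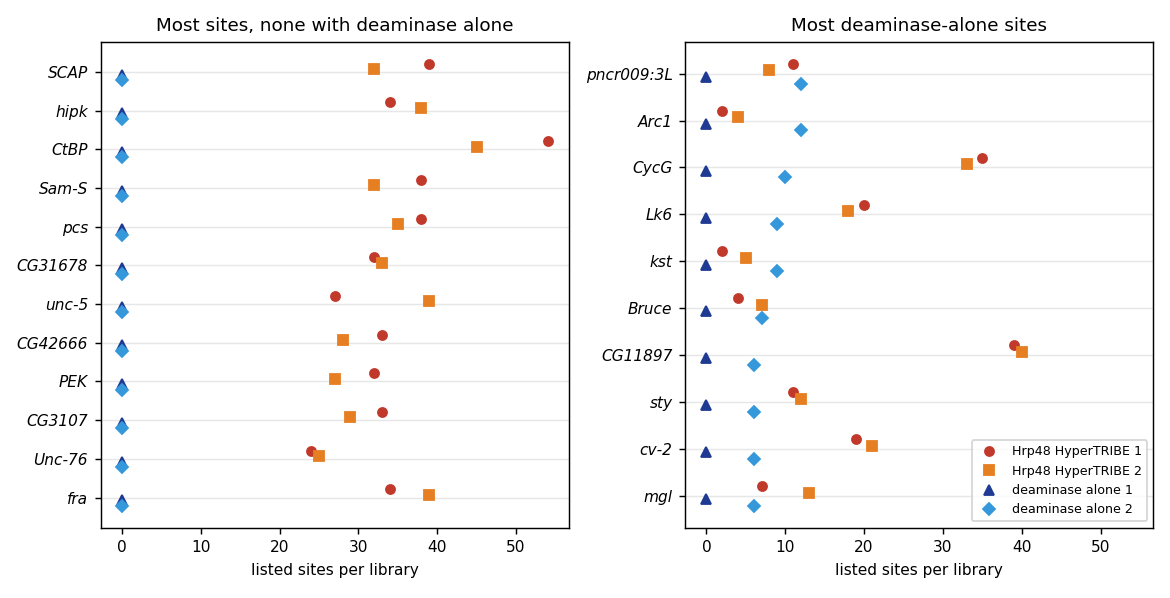
Listed sites per gene (horizontal axis) in each of the 4 libraries for the 12 genes with most reproduced HyperTRIBE sites and none without Hrp48 (left), and for the 10 genes with both kinds of site that held most deaminase-alone sites (right). Each symbol is 1 library; all the genes on the left lie at 0 in both deaminase-alone libraries, and all those on the right lie at 0 in replicate 1 while replicate 2 has 6 to 12 sites.

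Some sites were edited in most reads with Hrp48 and lay in genes with no listed site without it. The highest was in ImpL3, which encodes lactate dehydrogenase (3L, position 6252709 of build dm3, exon). There 49 of 63 reads (77.8%) were edited in replicate 1 and 61 of 68 (89.7%) in replicate 2. Hop, the gene of a protein that links the chaperones Hsp70 and Hsp90 (2L, 297369), had a site at 78.4% and 80% of 37 and 65 reads. Sites here were ranked by the mean of both HyperTRIBE libraries, among those with at least 30 reads in each. High levels in both libraries follow in part from that choice.

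Of the glycolysis genes, Ald and Pgi had sites among the 8 highest. Ald, the aldolase gene (3R, 22080705), was edited at 74.6% and 75.4% of 63 and 61 reads. Pgi, which encodes phosphoglucose isomerase (2R, 4798624), was at 73.1% and 70.2% of 78 and 57 reads. The Sam-S site (2L, 113727) was at 75.3% and 69.7% of 93 and 99 reads. The remaining top sites were those of CG7130 (3L, 22068779; 71.7% and 76.6%), CG3862 (2L, 825098; 77.4% and 69.2%) and CG11577 (3L, 19088324; 71.2% and 72.3%). All 8 sites were in exons, and for these genes neither deaminase-alone library listed any site.

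The genes that the constructs derive from were also listed only with Hrp48. Hrb27C itself (2L, 6920834 to 6928207) had 16 and 18 HyperTRIBE sites, 13 of them shared, at a median of 15.7% and 15.4%, and 0 and 0 deaminase-alone sites. Reads of the Hrp48 construct and of the cell's own Hrb27C cannot be told apart in these lists. Adar (X, 1672975 to 1677727) had 16 and 10 HyperTRIBE sites, 10 shared, at a median of 16.5% and 15.3% and on a median of 125.5 and 126 reads, and 0 and 0 without Hrp48. Every one of its 16 sites is also annotated to CG42666. Both constructs carry the Adar catalytic domain, whose reads cannot be told from those of the cell's own Adar.

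The 254 genes with both kinds of site held more HyperTRIBE sites than the 2966 without a deaminase-alone site. Their median number of reproduced HyperTRIBE sites was 5 against 2, and 44 (17.3%) had 10 or more against 150 (5.06%). Their most edited site had a median level of 36.6% and 36.3% in HyperTRIBE replicates 1 and 2, against 27.4% and 28.1%. Median reads per site were also higher, at 40 and 49 against 32.5 and 43.5, and the part of read depth in these differences was not tested. On the X chromosome lay 12.2% of the first class and 15.1% of the second.

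The share of HyperTRIBE genes with a deaminase-alone site was larger in each bin with more reproduced sites. It was 3.63% (Wilson 95% interval 2.67 to 4.93%) of the 1073 genes with a single site, 5.62% at 2 to 3 sites, 11.5% at 4 to 6, 16.6% at 7 to 10 and 22.2% (15.6 to 30.6%) at 11 to 20. The last bin, 21 to 31 sites, held only 16 genes, of which 5 were listed. By the level of the most edited site the share went from 3.41% (2.44 to 4.75%) at 10 to 20% editing to 18% (13.8 to 23.03%) at 50% or more. By reads it was 4.11% at 20 to 30 and between 7.33% and 10.8% in the bins above. Of the 20 genes with most reproduced sites, 7 had a deaminase-alone site. At 50 or more reads and 30% or more editing in both HyperTRIBE libraries, 226 of 280 genes (80.7%) had none.

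**Figure D3:**
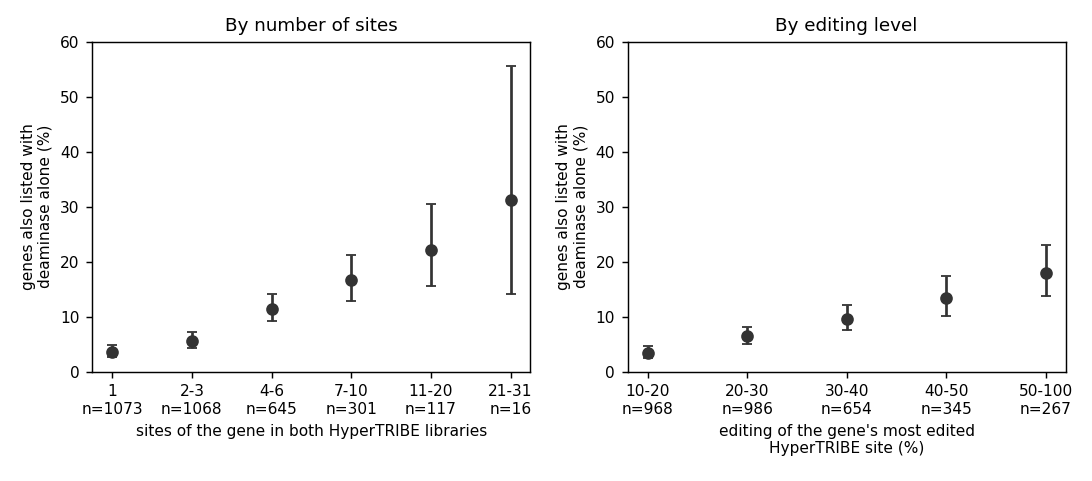
Percentage of genes with a reproduced HyperTRIBE site that also had a deaminase-alone site (vertical axis), by the number of reproduced sites (left) and by the level of the most edited of them (right). Points are shares, bars are Wilson 95% intervals for counting error, and n is the number of genes; the share is 3.63% in the leftmost bin of the left panel and 22.2% at 11 to 20 sites.

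A larger share of the genes edited without Hrp48 was also listed with another RNA-binding protein. FMRP HyperTRIBE, in which the same changed domain is joined to the translation regulator FMRP (1 library), listed 212 of the 254 genes (83.5%, 78.4 to 87.5%) and 1395 of the 2966 (47.0%, 45.2 to 48.8%). Hrp48 TRIBE, with the unchanged domain, listed 58.3% (52.1 to 64.2%) and 34.2% (32.5 to 35.9%) in at least 1 of its 2 libraries. With FMRP the intervals also stood apart among genes with few reproduced HyperTRIBE sites. At a single site the shares were 66.7% (51.0 to 79.4%) and 32.0% (29.2 to 34.9%), and at 4 to 6 sites 90.5% (81.7 to 95.3%) and 57.8% (53.7 to 61.8%). At 7 to 10 sites they were 82% (69.2 to 90.2%) and 68.1% (62.1 to 73.6%), and the intervals overlapped. With Hrp48 TRIBE the shares were 46.2% (31.6 to 61.4%) against 16.2% (14.1 to 18.6%) at a single site, and 66.0% (52.2 to 77.6%) against 65.7% (59.7 to 71.3%) at 7 to 10. Genes are not replicates, and each share comes from the libraries named.

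Several genes carried clusters of deaminase-alone sites, nearly all from replicate 2. The gene listed as pncr009:3L, a hairpin RNA gene with the current symbol hpRNA:CR33940 (3L, 19479914 to 19481446), had 12 deaminase-alone sites against 11 and 8 HyperTRIBE sites, and 6 of the 12 positions were shared. Its most edited site was at 35.5% without Hrp48 and at 41.0% and 40.3% with it, at the same position. These 3 libraries thus listed 8 to 12 sites in the hairpin RNA, and replicate 1 of the deaminase alone listed none.

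Arc1 differed from this. It encodes a protein descended from retrotransposon Gag that forms capsids and carries its own messenger RNA (2R, 10246089 to 10246981). Deaminase-alone replicate 2 listed 12 sites in it, against 0 in replicate 1 and 2 and 4 in the HyperTRIBE libraries. The most edited of the 12, at position 10246252, had 49 of 66 reads edited (74.2%), and the site at 10246206 had 33 of 69 (47.8%). Neither position was listed with Hrp48, although the Arc1 sites that HyperTRIBE did list had a median of 120 and 108.5 reads. Those were at 21.5% and 29.1% at most. Positions 10246089 and 10246839 were listed both with and without Hrp48, at 10.4 to 16.2%.

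**Figure D4:**
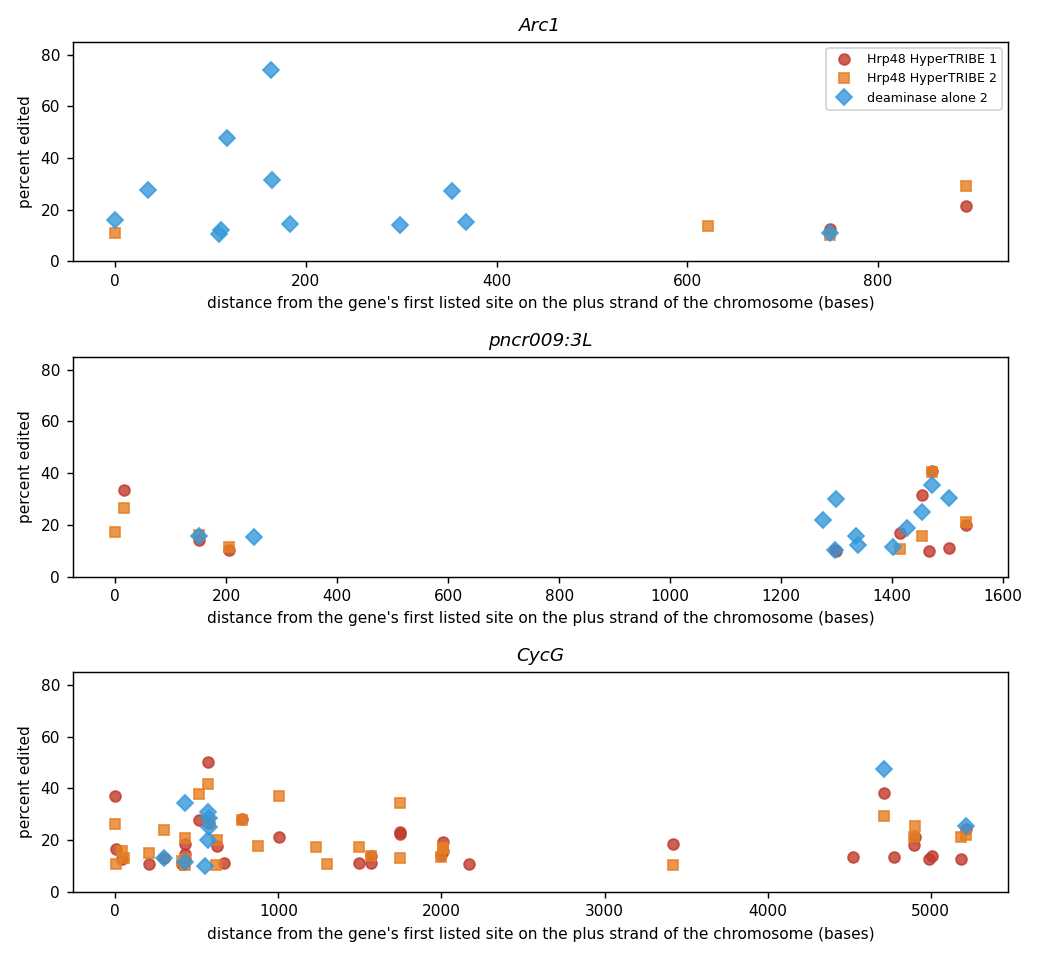
Percent edited (vertical axis) at each listed site of Arc1, the hairpin RNA gene pncr009:3L and CycG by distance in bases from the gene's first listed site (horizontal axis), for both HyperTRIBE libraries and deaminase-alone replicate 2. Each symbol is 1 site in 1 library; in Arc1 the sites without Hrp48 fall mostly where HyperTRIBE lists none and reach 74.2%, while in CycG the HyperTRIBE sites cover the gene and those without Hrp48 fall among them.

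Other genes of this kind held more sites with Hrp48 than without, and their deaminase-alone positions coincided with HyperTRIBE positions only in part, in 6 of 10 for CycG, 5 of 9 for Lk6, 4 of 6 for CG11897, 2 of 6 for cv-2 and for sty, and 0 of 6 for mgl. CycG, which encodes cyclin G, had 35 and 33 HyperTRIBE sites against 10 in deaminase-alone replicate 2, and its deaminase-alone sites had a higher median level (25.2% against 15.9% and 17.4%) on fewer reads (30.5 against 73 and 61). Lk6, the kinase that phosphorylates the cap-binding protein eIF4E, had 20 and 18 against 9. CG11897 had 39 and 40 against 6, and cv-2, which encodes a BMP-binding protein, 19 and 21 against 6. By contrast, kst, which encodes the heavy beta-spectrin, had 2 and 5 against 9, and Bruce, a very large ubiquitin-conjugating inhibitor of apoptosis, 4 and 7 against 7. The sprouty gene sty, an antagonist of receptor tyrosine kinase signalling, had 11 and 12 against 6, and the endocytic receptor gene mgl 7 and 13 against 6.

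Over the 254 genes together, HyperTRIBE listed 2544 and 2428 site lines and the deaminase alone 14 and 428. A gene had a median of 6.5 more sites with Hrp48 than without (quartiles 3.5 and 12, group means per gene), and 230 genes (90.6%) had more in both HyperTRIBE libraries than in deaminase-alone replicate 2. In 178 of them the class rests on a single deaminase-alone site. The 5 genes with fewer sites in both HyperTRIBE libraries than in deaminase-alone replicate 2, named after their values were seen, were Arc1, kst, pncr009:3L, the polyubiquitin gene Ubi-p63E and the ribosomal RNA pseudogene CR41602.

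The genes listed without Hrp48 only were few, and their sites were edited at 15.5% at most. pic, whose product is the DDB1 subunit of Cul4 ubiquitin ligases, had 2 sites of at most 11.4% in deaminase-alone replicate 2. RpS3, a small ribosomal subunit gene (3R, 19185539), had 1 site at 15.5% of 116 reads. The sites in CG14803 (15%), the homeobox gene ct (10%) and the replication licensing gene dup (10%) had 20 reads each. The last 3 lay at the lowest read number that the lists contain, and 2 of them at the lowest editing level as well.

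Individual positions coincided for a smaller share than genes, which follows in part from the rule that any site lists a gene. Of the 464 deaminase-alone sites, 196 (42.2%, 37.8 to 46.8%) were listed in a HyperTRIBE library, 145 of them in both. The other 268 (57.8%) were listed in neither, but 117 of these (43.7%, 37.9 to 49.6%) lay within 100 bases of a HyperTRIBE site. In replicate 1 of the deaminase alone 10 of 13 sites coincided, and in replicate 2 193 of 459. Replicates of the same construct also coincided in part. The HyperTRIBE libraries shared 10851 of their 19706 and 22803 sites, and the deaminase-alone libraries 8 of their 13 and 459. Sites that coincided had a median level of 15.4% (quartiles 12 and 25%) in deaminase-alone replicate 2 on a median of 29 reads, and those that did not 13.3% (10.8 and 16.7%) on 26 reads. FMRP HyperTRIBE listed 110 of the 196 (56.1%, 49.1 to 62.9%) but 11 of the 268 (4.10%, 2.31 to 7.20%). Hrp48 TRIBE listed 74 (37.8%, 31.3 to 44.7%) and 6 (2.24%, 1.03 to 4.80%). Positions found without Hrp48 and absent from HyperTRIBE were thus rarely in any other list.

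Of the 12 sites at 50% or more in deaminase-alone replicate 2, 10 were also listed with Hrp48. The intronic site in CG13900 and the overlapping CR45184 (3L, 827873) was at 100% without Hrp48 and at 100% and 94.9% with it. The hnRNP gene sqd (3R, 9466428) was at 63.6% of 22 reads without Hrp48 and at 35.5% of 31 reads in HyperTRIBE replicate 1 only. CalpB, a calpain protease gene (3L, 9885234), was at 58.3% of 24 reads without Hrp48 and at 11.4% of 44 in HyperTRIBE replicate 2 only. The zinc finger gene crol (2L, 11796346) was at 56.5% without and at 50% and 39.6% with Hrp48. The sites in Arc1 (74.2%) and CG18522 (52.2% of 23 reads; 3R, 11360469) were those listed without it only.

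Reads next to a deaminase-alone site show places where the free domain's library had coverage. At or within 100 bases of a site of deaminase-alone replicate 2 lay 342 reproduced HyperTRIBE sites. That library listed 142 of them, and these entered because they were its own sites, so their share (41.5%) follows from the choice. The other 200 had a median HyperTRIBE level of 18%, and 31 (15.5%, 11.1 to 21.2%) were at 30% or more. At the nearest deaminase-alone site of these 200 the reads had a median of 27 and never fell below 20. Examples chosen after their values were seen were pico (X, 19726976), at 53.3% and 57.6% with Hrp48 and not listed without it, where a deaminase-alone site 1 base away had 26 reads. The cytokine signalling inhibitor gene Socs36E (2L, 18139277) was at 58.5% and 50%, with a deaminase-alone site 19 bases away on 26 reads. In ben, which encodes a ubiquitin-conjugating enzyme (X, 13893258), the levels were 57.7% and 45.2%, and a site 15 bases away had 31 reads. In the other direction, 91 sites of deaminase-alone replicate 2 that were not listed with Hrp48 lay within 100 bases of a site of HyperTRIBE replicate 2. Their median level was 13.6% without Hrp48, and reads at the HyperTRIBE site nearby had a median of 50 and never fell below 21. The read number at the unlisted position itself is not in the lists.

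The level of editing could be compared directly at the 145 sites, in 113 genes, that both HyperTRIBE libraries and at least 1 deaminase-alone library listed. At 25 sites (17.2% of those tested) in 24 genes, counting both Hsp22 and Hsp67Bb for their common site, editing was higher with Hrp48, and at 0 it was lower (limma on log2 odds of editing, adjusted p under 0.05). At an unadjusted p under 0.05 the numbers were 45 higher and 4 lower, and Fisher's exact test on reads summed over libraries, which ignores their spread, called 4 lower. The HyperTRIBE libraries both lay above every deaminase-alone value at 90 sites (62.1%) and both below at 26 (17.9%). The median difference was 0.58 log2 odds, with 0.45 and 0.51 for each HyperTRIBE library against deaminase-alone replicate 2. Median levels over the 145 sites were 29.5% and 27.6% with Hrp48, and 15.6% in deaminase-alone replicate 2 at the 142 it listed. Site by site, the median difference from deaminase-alone replicate 2 was smaller, at 5.46 and 6.05 points for HyperTRIBE replicates 1 and 2. At the 30 sites of at least 50 reads the median difference was 0.14 log2 odds, with 12 sites higher and 2 lower.

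Reads behind these values were fewer without Hrp48 (medians 48 and 58 against 30), and 23 of the 25 calls rest on a single deaminase-alone library. At such sites the standard error (SE) took its spread from the HyperTRIBE libraries and from other sites. It left out the counting error of the deaminase-alone reads and may be too small. When either HyperTRIBE replicate was left out, no site passed, although all 25 estimates stayed higher. With weights from read numbers 1 site passed.

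**Figure D5:**
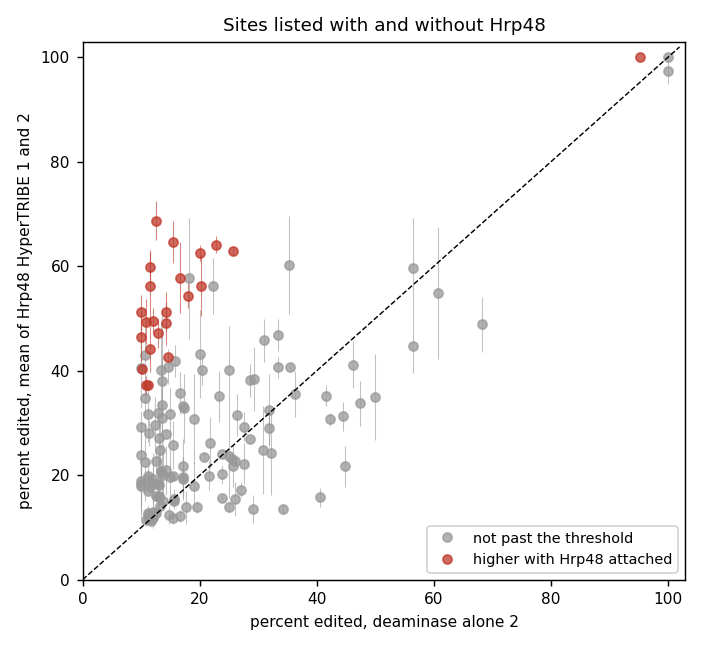
Percent edited in deaminase-alone replicate 2 (horizontal axis) and with Hrp48 (vertical axis, mean of 2 libraries, vertical lines joining their values) at the 142 tested sites listed in both HyperTRIBE libraries and in deaminase-alone replicate 2. Red points passed the limma threshold, grey points did not, and the dashed line marks equal levels; red points lie mostly at 10 to 26% without Hrp48 and at 37 to 69% with it, and the red point at the top right is CR40677, beside 2 grey points (CR41602 and the site of CG13900 and CR45184).

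The largest rise was at Traf4, which encodes a signalling adaptor (2L, 4380214, exon). Its site was edited at 72.4% of 58 reads and 65.0% of 60 with Hrp48, and at 12.5% of 32 in deaminase-alone replicate 2, with no listing in replicate 1. The difference was 3.78 ± 0.49 log2 odds (SE; limma adjusted p = 0.0330). CG6293 (3R, 6134233) was at 63% and 77.5% with Hrp48 and at 16.7% of 30 reads in replicate 1 of the deaminase alone (3.46 ± 0.60). In each of these genes both HyperTRIBE values lay far above the only value without Hrp48.

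The next largest rises were at mRpS22, Phb2, CG12567 and PI31. mRpS22, a mitochondrial ribosomal protein gene (3R, 23743158), was at 62.7% and 57.1% against 11.5% (3.32 ± 0.47). The prohibitin gene Phb2 had a site at 49.4% and 63.2% against 11.5% (2R, 14709210; 3.23 ± 0.56), and another called site (14709240) at 45.2% and 53.7% against 10.9%. PI31, which encodes a proteasome regulator (2R, 7854963), was at 54.5% and 47.8% against 10% (3.04 ± 0.48). CG12567 (2LHet, 20241) was at 68.8% and 60.7% against 15.4% (3.18 ± 0.49). All these had a limma adjusted p of 0.0330.

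Called sites also lay in genes of translation and splicing. Ef1alpha48D is a gene of the factor that delivers aminoacyl-tRNA to the ribosome (2R, 7782933). Its site was at 63.7% of 113 reads and 62.1% of 124 with Hrp48 against 20.4% of 108 and 25.6% of 117 without. Its rise was 2.49 ± 0.36 log2 odds, and its 2 groups did not overlap in 4 listed values. RpS16 (2R, 18494527) was at 40.6% and 40% against 10.2% of 127 reads, and RpL4 (3R, 23750548) at 51.9% and 56.7% against 17.9% of 78. The splicing factor gene SC35 (2L, 12432188) was at 47.6% and 55.0% against 14.3%, and SF2 (3R, 12166050) at 42.6% and 42.9% against 14.6%. CR40677, a ribosomal RNA pseudogene, passed with 100% and 100% against 96.6% (28 of 29 reads) and 95.2% (20 of 21). Both Hrp48 TRIBE libraries and FMRP HyperTRIBE also listed this site at 100%, so it was near 100% with every construct. With no unedited read in HyperTRIBE, its estimate depends on the offset of 0.5 reads.

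The other called sites lay in genes of varied function. The mitotic kinase gene polo (3L, 20305503) was at 51.0% and 59.2% against 15.2% of 33 reads in replicate 1 of the deaminase alone. Cam, the calmodulin gene, had 2 called sites (2R, 8162065 and 8162074), at 50% and 44.4% against 12.8%, and at 37.3% and 37.1% against 11.1%. nrv1, which encodes a beta subunit of the sodium pump (2L, 6779333), was at 35.5% and 39.0% against 10.8%. The site shared by the small heat shock gene Hsp22 and Hsp67Bb (3L, 9367586) was at 62.1% and 50.4% against 20.3% and was the weakest call (limma adjusted p = 0.0490). Also called were ytr, R, CG11897, Gclc, Karl, cv-2 and Dg. All 25 sites were in exons.

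At no tested site did a lower level with Hrp48 pass the threshold. Sites entered only if both HyperTRIBE libraries listed them, at 10% or more, so positions that fell below this level with Hrp48 could not be tested, and the 0 does not count them. The 3 lowest estimates were at ex, a Hippo pathway gene (2L, 447348), CycG (3R, 27423154) and Lk6 (3R, 7579026). The ex site was at 14% and 17.6% with Hrp48 against 40.6% of 32 reads without (-1.81 ± 0.47 log2 odds; limma adjusted p = 0.0637). The CycG site was at 14.6% and 12.5% against 34.3% of 35 reads (-1.68 ± 0.46, adjusted p = 0.0700 with limma). The Lk6 site was at 25.6% and 17.7% against 44.8% of 58 reads (-1.54 ± 0.52, adjusted p = 0.111 with limma). With an offset of 1 read in place of 0.5, all 3 passed, and the Lk6 site passed in the fit on sites of at least 50 reads (limma adjusted p = 0.00517).

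The sites that all 4 libraries listed numbered 7. Besides Ef1alpha48D and CR40677 they lay in Atpalpha, CG11811, Aats-tyr, CR41602 and Ubi-p63E, and none of these 5 passed in the fit over 145 sites. For Aats-tyr, the tyrosyl-tRNA synthetase gene (3L, 16411383), the levels were 39.4% and 26.3% with Hrp48 and 10.7% and 17.4% without (1.48 ± 0.47 log2 odds, limma adjusted p = 0.0796). For Atpalpha, the catalytic subunit of the sodium pump, the groups did not overlap either (2.08 ± 0.60, limma adjusted p = 0.0637). Ubi-p63E was at 18.7% and 15.8% with Hrp48 and at 25% and 27.1% without (-0.76 ± 0.35, limma adjusted p = 0.199). A site in the overlapping genes CG12822 and Atg10 (2R, 3720987) was listed at 17.4% and 16.1% without Hrp48 and in neither HyperTRIBE library.

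For each functional group, the number of its edited genes that also carried a deaminase-alone site was set beside the 7.89% (7.01 to 8.87%) over all 3220 genes. Of 19 cytoskeletal genes with a reproduced HyperTRIBE site, 8 had one (42.1%, 23.1 to 63.7%). The lamin gene Lam had 20 and 17 HyperTRIBE sites against 2 in deaminase-alone replicate 2, the tubulin gene betaTub60D 15 and 16 against 2, and alpha-Spec 6 and 12 against 2. The group's median reads per site were 53.5, against 38.75 over all genes. Of 34 genes of hnRNP and other RNA-binding proteins, 10 had a deaminase-alone site (29.4%, 16.8 to 46.2%). Among these, pum, a translational repressor, had 26 and 23 sites against 2, and sqd 26 and 25 against 2.

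Ion transport genes had 5 of 15 (33.3%, 15.2 to 58.3%), among them the calcium pump gene PMCA with 31 and 24 sites against 1 and the proton pump subunit gene Vha16-1 with 17 and 19 against 1. Of 49 cytosolic ribosomal protein genes 8 had one (16.3%, 8.51 to 29.04%), led by RpS29 (9 and 8 sites against 5) and RpS27 (9 and 7 against 3). This group had the most reads, with a median of 115.5. Translation factors had 3 of 23, with eIF3-S8 at 14 and 7 sites against 3. Cell cycle genes had 3 of 14 (21.4%, 7.57 to 47.6%), which were CycG, polo and the transcription factor gene E2f (10 and 14 against 1). The intervals of translation factors and of cell cycle genes contained the 7.89% over all genes.

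Of CR-numbered noncoding genes 5 of 27 had one (18.5%, 8.18 to 36.7%). In the groups that follow, the Wilson interval of the share also contained the 7.89% over all genes. Membrane traffic had 2 of 27, which were Sec23 and the dynamin gene shi, while the small GTPase gene Rab1 (18 and 17 sites) had none. Mitochondrial ribosomal proteins had 2 of 24, ubiquitin and proteasome genes 2 of 25, and hemocyte and matrix genes 2 of 14. The 2 of 19 heat shock genes were Hsp22 and Hsp67Bb, which share their sites, and the mitochondrial chaperone gene Hsc70-5 had 18 and 15 sites with Hrp48 and none without.

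Of the 14 gene symbols in the glycolysis list 12 were listed, and all 12 had reproduced HyperTRIBE sites, as had 3220 of the 5118 genes. Of these, 0 of 12 had a deaminase-alone site, which allows a share of up to 25% when 3 counts are taken as the limit of a count of 0. Gapdh2, which encodes glyceraldehyde 3-phosphate dehydrogenase, had 11 and 10 sites, reaching 31.1% and 34.3%. Eno, the enolase gene, had 10 and 9, reaching 69.6% and 58.3%. Their median reads per site, 80.6 over the group, were above the 38.75 of all genes. Copper-response genes had 0 of 4, which by the same limit allows up to 75%, with copper sulphate added in both groups. Among them, the metallothionein gene MtnA had 6 and 3 HyperTRIBE sites and the metal-responsive factor gene MTF-1 15 and 12.

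In the comparison of levels at shared sites, the calls within these groups are read beside the 17.2% called higher over all 145 sites. Of 6 sites in cytosolic ribosomal protein genes 2 rose with Hrp48 (RpS16 and RpL4), with a median of -0.36 log2 odds over the 6, against 0.58 over all 145. An RpS29 site at -1.39 ± 0.52 log2 odds did not pass (limma adjusted p = 0.142). Of 5 sites in RNA-binding protein genes 2 rose (median 1.97), and of 5 in translation factor genes 1 rose (median 1.5). Of 7 in cell cycle genes 1 rose, in polo, with a median of -0.12. All the others lay in CycG, so this median describes that gene rather than the group. Of 4 cytoskeletal sites 0 rose (median 0.46).

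Across the 142 sites listed in deaminase-alone replicate 2 and both HyperTRIBE libraries, the level without Hrp48 followed that with it only loosely (Pearson r = 0.52, Spearman rho = 0.24). Between the HyperTRIBE replicates at these sites the values were 0.87 and 0.82. Levels without Hrp48 rested on fewer reads, and the sites of CR40677, CR41602 and CG13900 lay near 100% in all these libraries. The part of either in these values was not tested. The points are sites, which share libraries and genes and are not independent.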

How the data were processed

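Edited sites in polyadenylated RNA of S2 cells were taken from 4 libraries, 2 of Hrp48 HyperTRIBE and 2 of the E488Q domain alone, grouped by sample title. The authors deposited, per the file headers, a thresholded list of sites for each library, with whole-number read counts per base and the percent edited (here edited reads over total reads). A score in the deposited files is 10 times that percent and was not used. A second set of base counts, of unstated origin, served only to assign strand. TopHat2 2.1.1, Picard 2.8.2 and build dm3 are named in the submitters' processing notes without roles. Gene names, exon marks and positions are the files'; 4067 of 5118 names are current symbols in the RefSeq gene table, 984 are older ones and 67 did not match. Sites annotated to several genes (3.61% of 31926) count once as a site and once for each gene.

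Listed sites held 788102 and 979818 reads with Hrp48 and 559 and 15602 without; library depth is unknown. Numbers per library were compared by two-sided exact permutation tests. Levels at shared sites were fitted with limma 3.58.1 in R 4.3.3 on log2((edited + 0.5)/(unedited + 0.5)), with a library that lacks the site left missing, two-sided, with Benjamini-Hochberg adjustment over 145 sites at 0.05. The spread is pooled over sites, so a shift common to a library is not covered and the p-values may be too small. At a site with 1 deaminase-alone value, the spread of that group at the site and its counting error are not covered either. Counts of reads were not tested with a count model, since they are conditional on listing. The fit was tested on simulated data. Shares carry Wilson 95% intervals. Other steps used Python 3.11.15 (numpy 2.4.6, pandas 2.3.3, matplotlib 3.10.9, scipy 1.17.1). In HyperTRIBE replicate 2, 1 line had base counts that did not sum to its total.

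Named genes were the 12 with most reproduced sites and the 8 with the most edited site among genes listed only with Hrp48, every gene with a site in both deaminase-alone libraries, the 10 with most deaminase-alone sites, the 6 largest changes in level per direction (the 3 largest estimates where fewer than 3 passed), up to 6 genes listed only without Hrp48, Hrb27C, Adar and up to 4 genes of each list. The comparison, the lists and the rules were chosen with earlier results of these data known. Alternatives were a minimum of 50 reads or 20% editing, single-gene sites, each library left out, other class rules, an offset of 1 read, sites in all 4 libraries with and without a replicate block, weights from reads and Fisher's exact test. After seeing the data, exonic lines only and leaving out CR-numbered genes were added. Hrp48 TRIBE and FMRP HyperTRIBE replicate 1 were used for their listings only, and the series' other samples were not analysed here.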

Additional observations from a re-analysis of the deposited data

How the results depend on the processing

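HyperTRIBE listed more sites and genes than the deaminase alone under every alternative run. Class sizes moved with the listing rules. Genes listed only with Hrp48 were 1040 at a minimum of 50 reads, 1822 at 20% editing, 4831 where 1 HyperTRIBE library was enough and 1932 with 2 or more reproduced sites, and 2971 to 4485 with a library left out. Genes with both kinds of site were 34 and 68 at the same minimums and 14 to 274 with a library left out. Genes listed without Hrp48 only were 1 at 50 reads and 0 to 13 with a library left out. Deaminase-alone sites listed with Hrp48 were 57.1% at 50 reads, 50% at 20% editing, 67.5% within 100 bases, and 36.4 to 76.9% with a library left out. The median gain of sites per gene was 2.5 at 20% editing and 3.25 to 6 with a library left out. The difference of median editing, -0.05 points, changed sign for single-gene sites (0.35), without CR-numbered genes (0.72) and without deaminase-alone replicate 1 (-1.24 to 1.14 over the libraries left out); the cause was not tested.

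Sites with higher editing numbered 12 at 50 reads, 2 at 20% editing, 44 with an offset of 1 read, 2 among the 7 sites in all 4 libraries, 1 with weights, and 0 to 22 with a library left out (0 without either HyperTRIBE library, where the spread comes from the few sites that both deaminase-alone libraries listed; 8 of 10 tested without deaminase-alone replicate 2). Sites lower were 2 at 50 reads, 3 with an offset of 1 read and 4 by Fisher's exact test. The median difference was 0.14 at 50 reads, 0.20 at 20% editing, 0.66 with weights, 1.66 for the 7 sites in all 4 libraries and 0.35 to 2.25 with a library left out. With the replicate number as a block, possible only at those 7 sites, 3 were higher and the median was 1.66; same-numbered libraries share only a number (r = 0.67 across the 7 sites for their deviations). Of 74 values for named sites under alternatives 52 kept direction and side of the threshold, 18 lost it, 4 gained it and 0 reversed. Library depth is unknown, so a gene not listed without Hrp48 cannot be called unedited.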
